A study of Mus musculus with 18 samples.

Results

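The liver transcripts of 10 antioxidant enzyme genes (Sod1, Sod2, Sod3, Cat, Gpx1, Gpx4, Prdx1, Txnrd1, Nqo1 and Hmox1) were followed in 18 mice. They were chosen by symbol and not by a cut on their values, though earlier results of these data were known. All 10 were found among the 19057 rows of the expression table. Liver RNA was sequenced from 10-week-old male ICR mice, 3 in each of 6 groups. Con mice had a regular diet and saline. STZ mice received 1 injection of streptozotocin, a toxin of pancreatic beta cells that leaves mice without enough insulin and serves as a model of type 1 diabetes. A10-FMT and Con-FMT mice received STZ and then, by mouth, small-intestinal content pooled from donor mice, given AOS at 10 mg/kg for A10-FMT and water for Con-FMT. AOS is alginate oligosaccharide, a short sugar chain from brown algae. The AOS and STZ+AOS groups are known from the sample labels alone, which give AOS at 10 mg/kg, without or with STZ. The expression value was RPKM, the reads of a gene scaled to the length of its transcript and to the mapped reads of its library, so that levels of different genes can be compared per length. Separate animals are given by the labels only as numbers within a group.

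These enzymes remove reactive oxygen species in consecutive steps. Superoxide dismutases turn superoxide into hydrogen peroxide. Catalase, the glutathione peroxidases and the peroxiredoxins then break the peroxide down, and thioredoxin reductase returns the oxidised thioredoxin that peroxiredoxins depend on to its reduced form. Nqo1 reduces quinones and Hmox1 opens the heme ring, and both, with Txnrd1 and Prdx1, are textbook targets of the transcription factor NRF2, which binds the antioxidant response element (ARE). Hepatocytes hold many peroxisomes and are rich in catalase and Gpx1. Liver macrophages (Kupffer cells), which digest red blood cells, carry much of the Hmox1 of healthy liver.

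Gpx1, Gpx4 and Txnrd1 share a feature that the other 7 genes lack. In each, a TGA codon inside the reading frame is read as selenocysteine, the amino acid that holds selenium in the active site. A search of the longest annotated reading frame of each of the 10 genes (GENCODE M21) found 1 such internal TGA in each of these 3 genes and 0 in the others. It was codon 47 of 201 in Gpx1 (chr9:108339451-108339453), codon 129 of 253 in Gpx4 (chr10:80054737-80054739) and codon 612 of 613 in Txnrd1 (chr10:82896037-82896039), all on the forward strand of GRCm38. The coding bases around it are shown with the TGA in capitals, because the 3 genes differ in where the codon falls and 2 of them stand among the genes that rose with STZ. In Txnrd1 a single glycine codon lies between it and the stop codon.
Gpx1: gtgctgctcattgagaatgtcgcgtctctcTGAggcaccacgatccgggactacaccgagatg
Gpx4: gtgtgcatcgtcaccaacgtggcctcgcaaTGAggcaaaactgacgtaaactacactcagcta
Txnrd1: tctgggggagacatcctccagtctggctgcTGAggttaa

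Promoter windows (250 bases before to 50 bases after the start of transcription, RefSeq, GRCm38.p6) were found for 8 of the 10 genes, with 4 windows for Gpx4 and 3 for Txnrd1. They were searched on both strands for the ARE core TGACNNNGC and for the AP-1 motif TGANTCA. These overlap where the ARE reads TGACTCAGC. The ARE core was present in Sod1, Prdx1 and 1 of the 3 windows of Txnrd1, that is in 3 of 8 genes, against 14% of 27025 genes with a window. The AP-1 motif was present in Prdx1, against 8.97% of all genes. The bases before the start site of Prdx1 (chr4:116685349-116685598, forward strand), Txnrd1 (chr10:82858956-82859205, forward strand), Sod1 (chr16:90220512-90220761, forward strand) and Nqo1 (chr8:107403206-107403455, reverse strand) are shown with the matches in capitals. The first 3 hold all ARE matches found, and Nqo1 is the gene that changed most.
Prdx1: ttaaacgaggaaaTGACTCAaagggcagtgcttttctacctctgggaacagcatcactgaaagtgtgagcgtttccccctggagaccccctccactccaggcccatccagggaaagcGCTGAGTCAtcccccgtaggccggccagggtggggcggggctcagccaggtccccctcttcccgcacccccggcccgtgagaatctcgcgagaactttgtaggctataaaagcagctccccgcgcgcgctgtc
Txnrd1: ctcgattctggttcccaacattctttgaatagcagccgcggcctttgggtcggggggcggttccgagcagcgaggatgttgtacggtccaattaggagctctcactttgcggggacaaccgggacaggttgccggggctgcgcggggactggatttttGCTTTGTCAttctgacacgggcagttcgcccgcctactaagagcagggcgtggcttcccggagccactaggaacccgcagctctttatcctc
Sod1: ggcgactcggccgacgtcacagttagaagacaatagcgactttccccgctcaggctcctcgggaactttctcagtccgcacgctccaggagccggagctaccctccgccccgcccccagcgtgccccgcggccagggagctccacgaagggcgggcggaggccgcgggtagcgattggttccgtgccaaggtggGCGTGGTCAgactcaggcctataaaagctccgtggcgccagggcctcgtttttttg
Nqo1: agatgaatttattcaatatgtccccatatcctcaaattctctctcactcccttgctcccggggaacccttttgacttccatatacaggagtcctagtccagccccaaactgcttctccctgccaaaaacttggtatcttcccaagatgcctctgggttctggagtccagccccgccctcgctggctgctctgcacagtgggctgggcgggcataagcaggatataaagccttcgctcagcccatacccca
The matches of Prdx1 start at 237 and 133 bases before the start site, and at the latter the AP-1 motif lies inside the ARE core, which is read on the opposite strand. The ARE cores of Txnrd1 and Sod1 start at 92 and 56 bases before it, also on the opposite strand. The letters searched for do not occur in the window of Nqo1, and bases outside the windows were not searched. A match is a run of letters and was not tested for binding.

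Library values that touch the results are given first. Summed RPKM ran from 621121 to 806937 and was highest in the 3 Con libraries (749557 or more), and relative depth, read from the smallest steps between low values, differed little (0.946 to 1.069). On the first principal component (57% of the variance) STZ mouse 3 had a score of 0.182, among the transplanted mice (-13.1 to 18.3), while STZ mice 1 and 2 had 45.9 and 46.4. Results on STZ are therefore also given without this mouse. On this component it was the STZ mouse nearest to the transplanted mice and to Con, so leaving it out favours larger differences from both. The hepatocyte marker sum (5 genes) was 40824 to 59502 RPKM in Con and 37252 to 52495 RPKM in STZ. The Kupffer cell sum (11 genes) was 132 to 199 and 193 to 381. The stellate cell and fibroblast sum (6 genes) was 72 to 83.1 and 108 to 131, with no overlap. Most of this last sum came from 1 gene, Dcn (61.37 to 71.61 RPKM in Con and 99.64 to 116.64 RPKM in STZ). The median log2 change of its 6 genes was 0.096, beside 0.21 for all genes. Called in STZ against Con were 3 of 5 hepatocyte markers, all lower, 2 of 11 Kupffer cell markers and 1 of 6 stellate cell and fibroblast markers, all higher (limma). The part of other cell types in the results was not tested. In whole liver, fewer cells of a type and less RNA per cell cannot be told apart.

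The levels of the 10 genes in Con liver were far apart. Gpx1 (1459 ± 13.7 RPKM, SD, n = 3), Sod1 (1398 ± 157 RPKM) and Cat (1087 ± 152 RPKM) were among the 73 genes of highest RPKM in the table. Prdx1 ranked 110 at 652.6 RPKM and Gpx4 358 at 238.8 RPKM. Sod2, the enzyme of the mitochondrial matrix, stood at 52.98 RPKM, Txnrd1 at 32.26 RPKM, Hmox1 at 16.79 RPKM and Sod3, the secreted enzyme, at 12.36 RPKM. Nqo1 was nearly silent at 1.38 ± 0.395 RPKM, rank 9489. In this order Gpx1 and Sod1 overlapped between mice, as did Sod1 and Cat, and no other neighbours did.

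**Figure D1:**
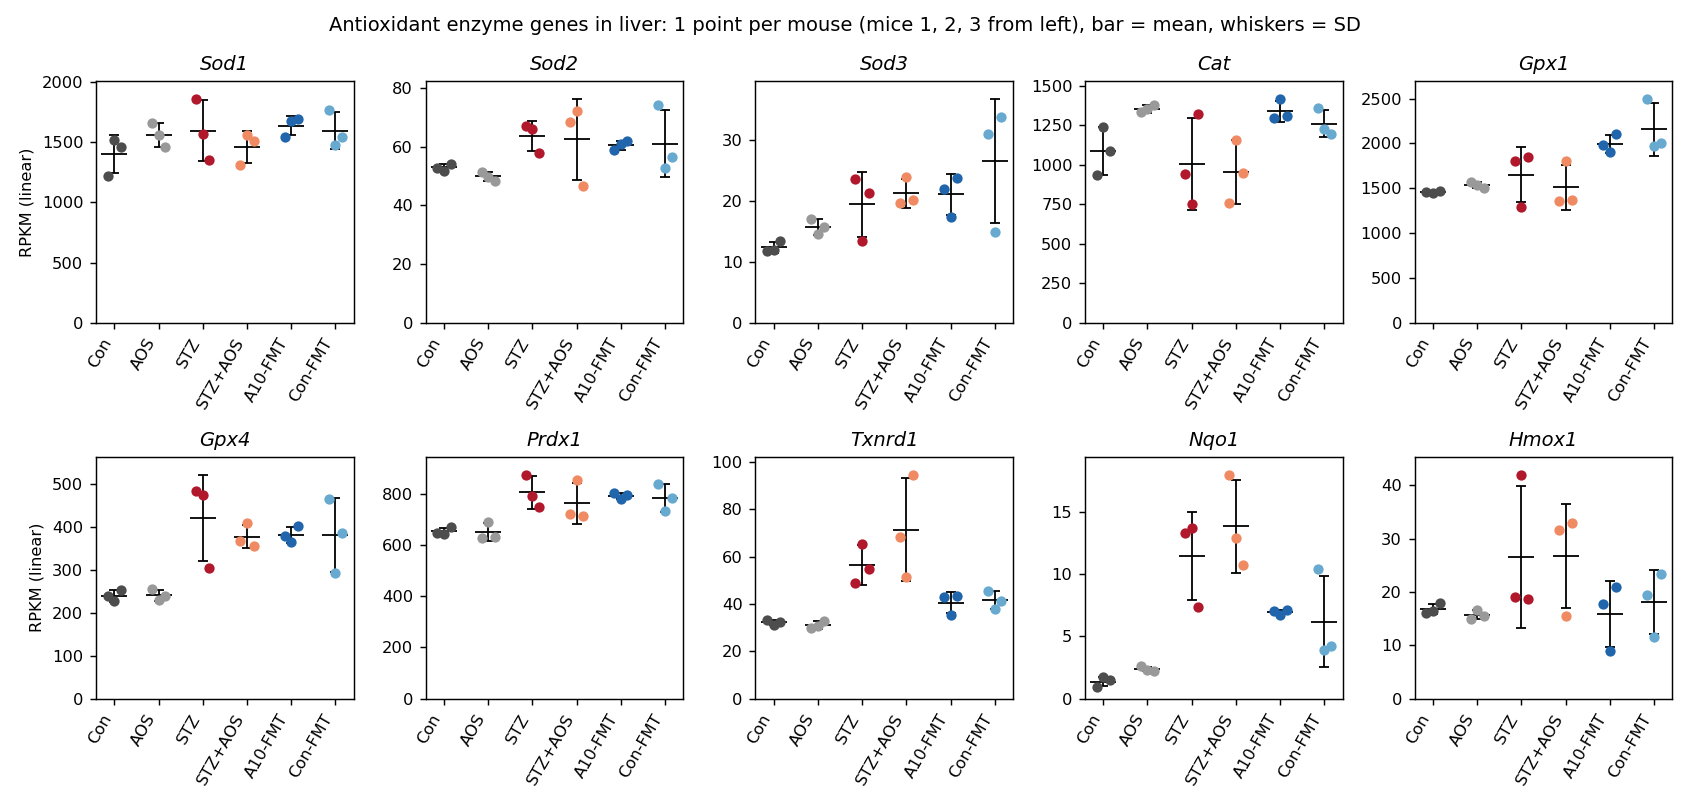
RPKM of the 10 antioxidant enzyme genes (linear axes from 0), 1 point per mouse in the order of mouse number, with the mean and SD (n = 3) of the 6 groups. In Nqo1, Txnrd1, Gpx4 and Prdx1 each of the 12 mice given STZ lies above all 6 mice that were not, and Hmox1 has the widest spread among STZ mice relative to its mean (50.3%).

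The comparison of STZ with Con asks which of these transcripts differ in livers of mice made diabetic. Nqo1, Txnrd1 and Gpx4 rose, and none of the 10 genes fell. The other 7 did not pass the test (limma on log2(RPKM + 1), Benjamini-Hochberg adjusted p under 0.05 over all 10602 genes tested). All 10 passed the filter on low values (1 RPKM or more in at least 3 libraries). The 3 of 10 genes called stand beside 38.5% of all genes called, 33% higher and 5.52% lower, so the count is near that of any genes. The 3 calls held when any 1 of the 6 mice was left out.

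Nqo1 (chromosome 8, 107388225 to 107403206) encodes the quinone reductase. It was read at 0.94, 1.71 and 1.48 RPKM in Con mice 1 to 3 and at 13.28, 13.71 and 7.37 RPKM in STZ mice. Each STZ mouse was above every Con mouse, with mouse 3 the lowest. The log2 change was 2.36 (SE 0.30, adjusted p 0.000527 in limma), and the ratio of the mean RPKM was 8.32. The added 1 makes the log2 change of so low a gene too small. Of all tested genes, 99.3% had a lower log2 change.

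Txnrd1 (chromosome 10, 82833951 to 82897712), the cytosolic thioredoxin reductase, was read at 33.33, 31.02 and 32.42 RPKM in Con and at 49.08, 65.47 and 54.83 RPKM in STZ. The groups did not overlap, and STZ mouse 3 lay between the other STZ mice. The log2 change was 0.78 (SE 0.12, adjusted p 0.00121 in limma). Reads of Txnrd1 can be mixed with those of 3 genes that overlap it in the annotation (Eid3, Gm38560 and Gm47073).

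Gpx4 (chromosome 10, 80047166 to 80056439) reduces lipid peroxides in membranes. It was read at 237.96, 226.16 and 252.28 RPKM in Con and at 481.93, 474.71 and 303.76 RPKM in STZ. STZ mouse 3 was again the lowest, but still above all Con mice. The log2 change was 0.78 (SE 0.20, adjusted p 0.0108 in limma). The pseudogene Gpx4-ps2 may share reads with it.

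Prdx1, Sod2, Sod3 and Hmox1 were higher in every STZ mouse than in any Con mouse without passing the test, though Prdx1 and Sod3 passed it in some alternative fits. Prdx1 (chromosome 4, 116685544 to 116700822), the cytosolic peroxiredoxin, was read at 646.31, 641.27 and 670.07 RPKM in Con and at 874.25, 790.69 and 748.95 RPKM in STZ (log2 change 0.30, SE 0.12, adjusted p 0.0610 in limma). It was called without STZ mouse 3 (log2 change 0.35, adjusted p 0.0270), with no variance trend (adjusted p 0.0192) and with all 6 groups in the fit (adjusted p 0.0484, each in limma). Sod2 (chromosome 17, 13006846 to 13040063) had 51.84 to 54.28 RPKM in Con and 57.78 to 67.2 RPKM in STZ (log2 change 0.26, SE 0.12, adjusted p 0.109 in limma). Sod3 (chromosome 5, 52363791 to 52371418) went from 11.79 to 13.41 RPKM in Con to 23.53, 13.43 and 21.23 RPKM in STZ mice 1 to 3, so that mouse 2 stood at the upper edge of Con (log2 change 0.58, SE 0.27, adjusted p 0.115 in limma, and 0.0354 with mouse number as a block). In all, 7 of the 10 genes did not overlap between the groups, each higher in STZ, where 47.7% of all genes did not overlap.

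Hmox1 (chromosome 8, 75093621 to 75100589), the inducible heme oxygenase, was even in Con (16.04, 16.49 and 17.84 RPKM) and uneven in STZ (19.06, 41.97 and 18.6 RPKM). STZ mouse 2 alone was above the other STZ mice added together, and the log2 change of 0.53 (SE 0.35) had an adjusted p of 0.250 in limma. This mouse also had the highest Kupffer cell marker sum of the 18 mice, 381 RPKM. The lowest Hmox1 value, 8.98 RPKM in A10-FMT mouse 2, was in the mouse with the lowest marker sum, 98.5 RPKM. Among the AOS mice, Hmox1 rose with the marker sum (14.97, 15.48 and 16.66 RPKM at sums of 164, 197 and 226 RPKM). The same held inside A10-FMT (8.98, 17.73 and 20.97 RPKM at 98.5, 260 and 271 RPKM). It held inside Con-FMT too (11.62, 19.47 and 23.41 RPKM at 155, 237 and 239 RPKM), and inside STZ. In Con and STZ+AOS it did not hold, nor always between mice of different groups. STZ mouse 1 had the second highest marker sum, 314 RPKM, with 19.06 RPKM of Hmox1, STZ+AOS mouse 3 had 238 RPKM with 33 RPKM, and Con mouse 2 had the second lowest sum, 132 RPKM, with 16.49 RPKM. The part of Kupffer cell RNA in the Hmox1 values was not tested.

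Sod1, Gpx1 and Cat, the 3 most abundant of the 10 genes, did not differ detectably between STZ and Con. Sod1 (chromosome 16, 90220754 to 90226329), the cytosolic copper and zinc enzyme, overlapped between the groups, at 1219.99 to 1517.26 RPKM in Con and 1353.76 to 1856.83 RPKM in STZ (log2 change 0.18, SE 0.16, adjusted p 0.389 in limma). The gene Scaf4 overlaps it on the other strand. Gpx1 (chromosome 9, 108338903 to 108340343), the main cytosolic glutathione peroxidase, was tight in Con (1444.55 to 1471.73 RPKM) and wide in STZ (1297.59 to 1854.56 RPKM), with a log2 change of 0.16 (SE 0.17, adjusted p 0.477 in limma). Cat (chromosome 2, 103453849 to 103485160), the catalase of peroxisomes, was read at 933.45, 1237.43 and 1090.08 RPKM in Con and at 943.13, 750.36 and 1321.16 RPKM in STZ. STZ mice 2 and 3 lay on opposite sides of the Con range, and the log2 change of -0.14 (SE 0.20, adjusted p 0.590 in limma) became 0.05 without STZ mouse 2.

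The STZ livers differed from Con in scale as well. Over all 10602 genes the median log2 change was 0.21 as deposited and -0.0048 after median-ratio scaling, which divides a library by the median ratio of its genes to their geometric means over the libraries. Relative to the median of all genes, Nqo1 was higher by 2.15, Gpx4 and Txnrd1 by 0.57, Sod3 by 0.36, Hmox1 by 0.32, Prdx1 by 0.086 and Sod2 by 0.046, while Gpx1 (-0.051), Sod1 (-0.030) and Cat (-0.36) were lower. Under median-ratio scaling the same 3 genes were called, with log2 changes of 2.18 for Nqo1, 0.52 for Txnrd1 and 0.52 for Gpx4 (adjusted p 0.000642, 0.00663 and 0.0395 in limma). Sod1, Sod2 and Gpx1 changed sign to -0.08, -0.0014 and -0.10, and Cat moved to -0.41 (adjusted p 0.151 in limma). Under this scaling 27.4% of all genes were called, 14.1% higher and 13.2% lower.

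**Figure D2:**
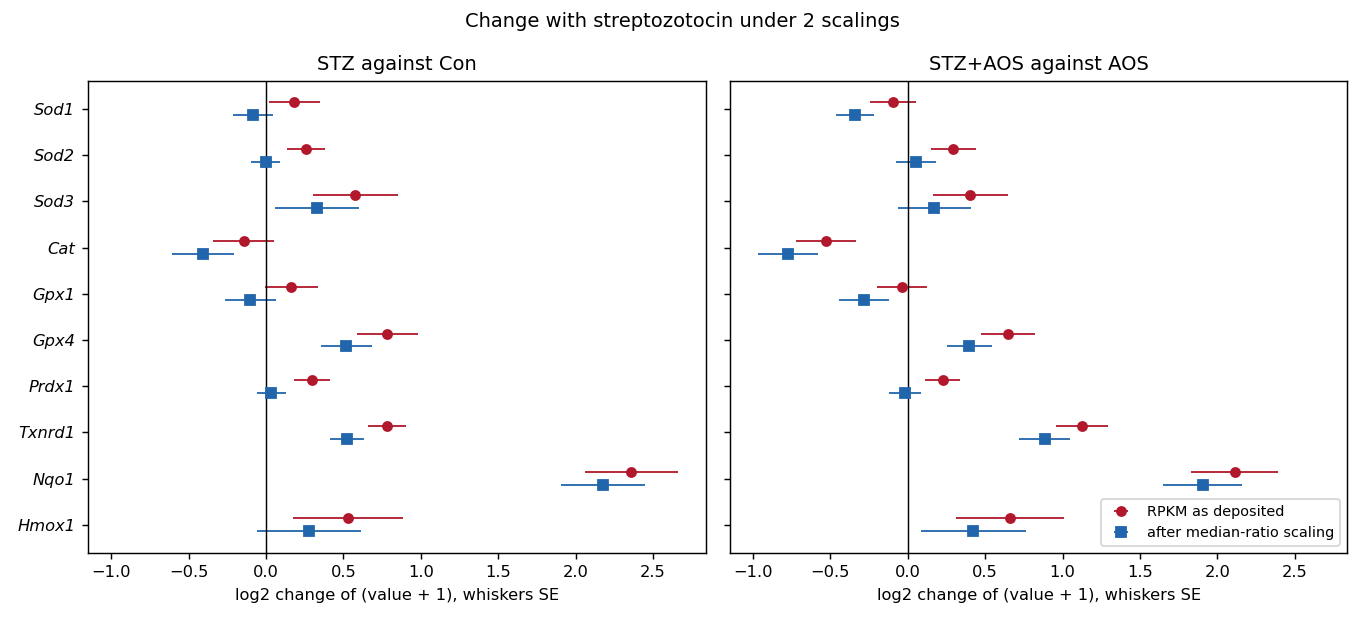
Log2 change of (value + 1) of the 10 genes, with SE, in STZ against Con (left) and STZ+AOS against AOS (right), from RPKM as deposited (circles) and after median-ratio scaling (squares). Scaling moved each gene to the left, and Nqo1, Txnrd1, Gpx4, Sod3 and Hmox1 stayed above 0 in both comparisons.

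STZ+AOS against AOS gives the same comparison in 6 other mice, with AOS in both groups. It shares no library with STZ against Con, but all 6 groups entered its model (10822 genes tested). Again Nqo1, Txnrd1 and Gpx4 rose, and Cat fell, 4 of 10 genes beside 37.9% of all genes. Nqo1 was read at 2.59, 2.31 and 2.23 RPKM in AOS and at 18.01, 12.89 and 10.72 RPKM in STZ+AOS, with a log2 change of 2.11 (SE 0.28, adjusted p 0.000177 in limma). Txnrd1 went from 29.94, 30.72 and 32.96 RPKM to 68.23, 51.32 and 94.7 RPKM (log2 change 1.13, SE 0.17, adjusted p 0.000349 in limma). For both genes the lowest STZ+AOS mouse was far above the highest AOS mouse. In all, 6 of 10 genes did not overlap between STZ+AOS and AOS, beside 49.1% of all genes.

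Gpx4 rose from 253.98, 228.75 and 239.02 RPKM in AOS to 366.94, 408.2 and 355.84 RPKM in STZ+AOS (log2 change 0.64, SE 0.17, adjusted p 0.0103 in limma), a call that median-ratio scaling ended (0.40, adjusted p 0.0612 in limma). Cat fell from 1331.67, 1351.75 and 1379.22 RPKM to 755.53, 1157.2 and 948.29 RPKM (log2 change -0.53, SE 0.19, adjusted p 0.0422 in limma). The groups did not overlap, and AOS mice were close together while STZ+AOS mice were spread. The call of Cat held under median-ratio scaling (-0.77, adjusted p 0.0102 in limma), and it was lost when any of the 3 AOS mice, STZ+AOS mouse 1 or STZ+AOS mouse 3 was left out (adjusted p 0.0758 to 0.165 in limma). It was also lost with quantile normalization (adjusted p 0.0818), with no filter (0.0777), with only the 2 groups in the fit (0.0776) and with the replicate block (0.05004). The hepatocyte marker sum was 52454 to 58114 RPKM in AOS and 39507 to 46522 RPKM in STZ+AOS, and its part in the Cat values was not tested.

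The STZ effect with AOS was compared with that without it by an interaction contrast, in which no gene of the 10 passed the test (limma; 0 of 10 at an unadjusted p under 0.05, beside 5.4% of all genes and 0% called). The contrast ran from -0.38 for Cat (SE 0.27) to 0.35 for Txnrd1 (SE 0.24). Likewise 0 of 10 genes were called in AOS against Con (0.00924% of all genes called) and in STZ+AOS against STZ (0% of all genes), with 0 of 10 at an unadjusted p under 0.05 in limma in each (7.22% and 6.07% of all genes). In AOS against Con the highest was Nqo1, whose AOS mice at 2.23 to 2.59 RPKM were all above Con (log2 change 0.52, SE 0.28, adjusted p 0.728 in limma), and the lowest was Hmox1 at -0.09. Of the 10 genes, 5 did not overlap between AOS and Con, beside 24.4% of all genes. In STZ+AOS against STZ the range was from -0.13 for Gpx4 to 0.30 for Txnrd1.

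The 2 comparisons with microbiota recipients against STZ ask whether the transplants changed these genes in STZ mice. They share the 3 STZ mice. In neither was a gene of the 10 called in limma, in A10-FMT beside 0.226% of all genes and in Con-FMT beside 0.00943%. At an unadjusted p under 0.05 there were 2 of 10 genes in A10-FMT (20.9% of all genes) and 3 of 10 in Con-FMT (20.1% of all genes). Nqo1, Txnrd1, Hmox1, Gpx4, Sod2 and Prdx1 had lower means than in STZ in both, and Cat, Gpx1, Sod3 and Sod1 had higher means.

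Txnrd1 was read at 43.14, 35.48 and 43.28 RPKM in A10-FMT and at 45.4, 37.87 and 41.37 RPKM in Con-FMT. All 6 transplanted mice lay below the lowest STZ mouse (49.08 RPKM) and above the highest Con mouse (33.33 RPKM). Against STZ, 3 of 10 genes did not overlap in A10-FMT and 2 of 10 in Con-FMT. Of all genes, 21.5% and 17.7% did not, so these counts are near those of any genes. The log2 change against STZ was -0.46 (SE 0.12, adjusted p 0.0878 in limma) in A10-FMT and -0.43 (SE 0.12, adjusted p 0.110 in limma) in Con-FMT. Nqo1 was read at 7.01, 6.73 and 7.11 RPKM in A10-FMT, just under STZ mouse 3 (7.37 RPKM). In Con-FMT it was read at 10.43, 3.91 and 4.22 RPKM. Against STZ its log2 change was -0.60 (SE 0.30, adjusted p 0.277 in limma) in A10-FMT and -0.86 (SE 0.30, adjusted p 0.155 in limma) in Con-FMT. Con-FMT mouse 1 was inside the STZ range, and the other 2 Con-FMT mice were below it.

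Cat was read at 1295.43, 1416.02 and 1305.22 RPKM in A10-FMT and at 1359.28, 1224.2 and 1197.34 RPKM in Con-FMT, close to STZ mouse 3 and above STZ mice 1 and 2 in both groups. The log2 change in A10-FMT against STZ was 0.45 (SE 0.20, adjusted p 0.226 in limma). Gpx1 was read at 1978.15, 1900.16 and 2104.88 RPKM in A10-FMT and at 2496.09, 1968.97 and 2002.58 RPKM in Con-FMT. Each of these 6 mice was above all STZ mice, with a log2 change of 0.39 in Con-FMT against STZ (SE 0.17, adjusted p 0.235 in limma). Con-FMT mouse 1, the highest in Gpx1, also had the highest erythroid marker sum of the 18 mice (9830 RPKM, where the others had 399 to 4220 RPKM), and the part of blood cells in its Gpx1 value was not tested. Gpx4 stayed at 365.04 to 401.84 RPKM in A10-FMT and 293.09 to 463.59 RPKM in Con-FMT, with log2 changes against STZ of -0.11 and -0.14.

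These counts rested on STZ mouse 3. Without it, 2 of 10 genes were called in each comparison, Txnrd1 lower (-0.48) and Cat higher (0.67) in A10-FMT, and Nqo1 lower (-1.13) and Cat higher (0.58) in Con-FMT (adjusted p 0.0467, 0.0224, 0.0300 and 0.0329 in limma). Of all genes, 12.7% and 15.5% were then called. The mouse left out was picked for lying among the transplanted mice, which favours such calls, so they are no separate evidence of a difference.

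**Figure D3:**
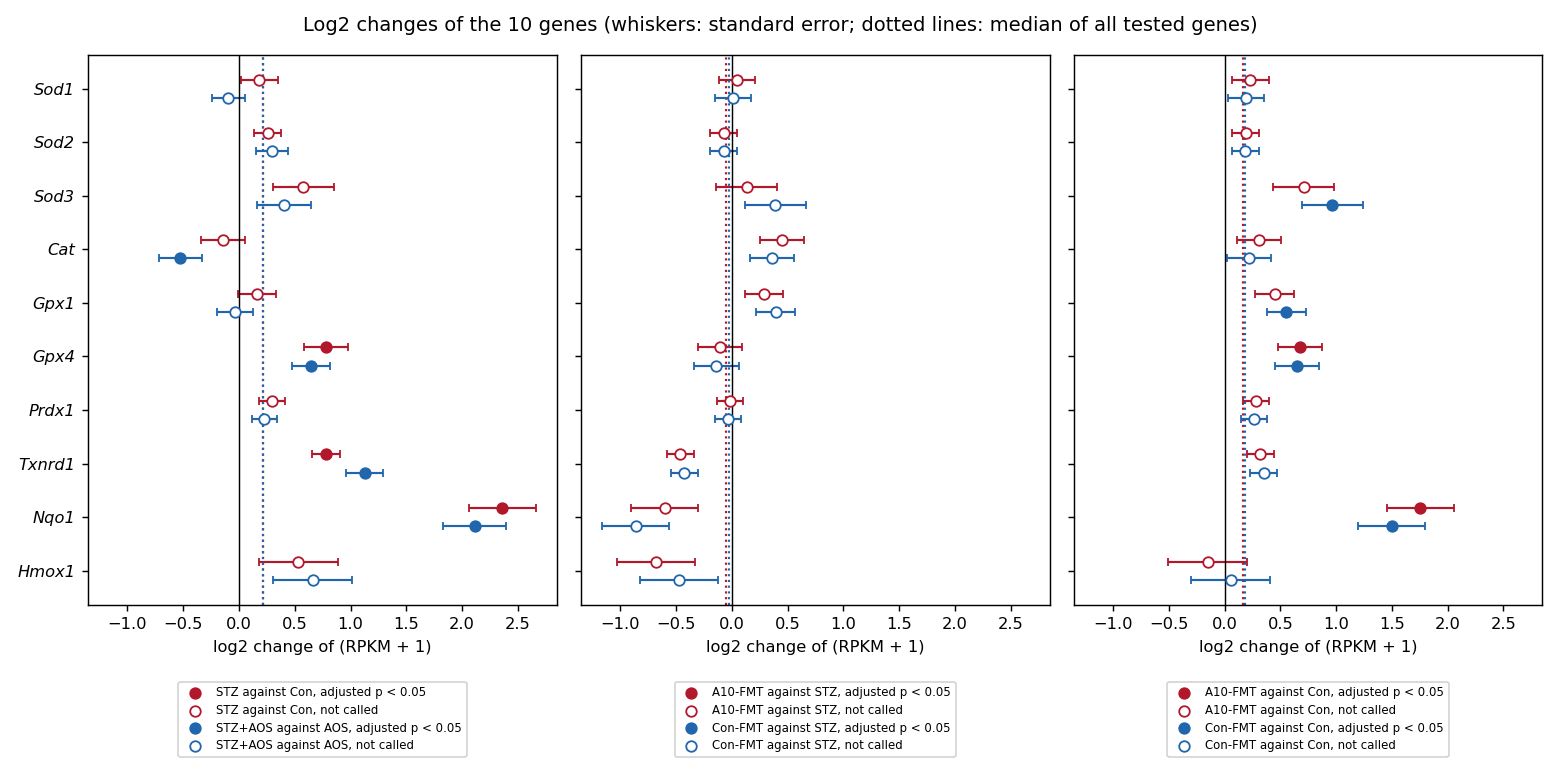
Log2 change of (RPKM + 1) of the 10 genes with SE in 3 pairs of comparisons. Filled points have an adjusted p under 0.05 in limma, open points do not, and dotted lines mark the median change of all tested genes. Nqo1, Txnrd1 and Gpx4 are filled in both comparisons of the left panel and no point is filled in the middle panel.

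Against Con, the transplanted mice still carried higher levels of several of the genes. In A10-FMT, Nqo1 (log2 change 1.76, SE 0.30, adjusted p 0.00485 in limma) and Gpx4 (0.68, SE 0.20, adjusted p 0.0377) rose, 2 of 10 genes beside 18.4% of all genes. In Con-FMT, Nqo1 (1.497, SE 0.30, adjusted p 0.0101), Sod3 (0.96, SE 0.27, adjusted p 0.0332), Gpx4 (0.65, SE 0.20, adjusted p 0.0427) and Gpx1 (0.55, SE 0.17, adjusted p 0.0444) rose, 4 of 10 genes beside 19.4% of all genes. Sod3 was read at 30.93, 14.94 and 33.68 RPKM in Con-FMT and at 21.96, 17.36 and 23.72 RPKM in A10-FMT, above all Con mice. Against Con, 9 of 10 genes did not overlap in A10-FMT and 6 of 10 in Con-FMT, beside 48.9% and 45.9% of all genes. The median of all genes was 0.16 and 0.19 (log2 change, A10-FMT and Con-FMT). Under median-ratio scaling Nqo1 alone was called in each (1.63 and 1.35, adjusted p 0.00461 and 0.0149 in limma), beside 11% and 8.13% of all genes, and the other log2 changes stayed above 0 at 0.47 for Gpx4 in A10-FMT and 0.75 for Sod3, 0.42 for Gpx4 and 0.32 for Gpx1 in Con-FMT. With mouse number as a block as well, Sod3 in Con-FMT was called under this scaling (adjusted p 0.0325 in limma). Leaving out any 1 of the 6 mice ended the call of Gpx4 in A10-FMT (adjusted p 0.0742 to 0.119 in limma) and that of Gpx1 in Con-FMT (adjusted p 0.0510 to 0.163). In Con-FMT the calls of Sod3 and Gpx4 held without Con-FMT mouse 2 and ended without any other mouse of the 2 groups (adjusted p 0.0736 to 0.130 for Sod3 and 0.0918 to 0.163 for Gpx4). Both comparisons share the 3 Con mice.

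A10-FMT and Con-FMT were compared with each other to ask whether the recipients of the different donor content differed. The content was pooled within each donor group, so an effect of the donors' AOS cannot be told apart from a difference between the pools. None of the 10 genes was called in limma, nor had any an unadjusted p under 0.05, beside 0% of all genes called and 2.86% at the unadjusted limit. The log2 changes ran from -0.25 for Sod3 (SE 0.27) to 0.26 for Nqo1 (SE 0.30). Each of the 10 genes overlapped between the groups, where 8.92% of all genes did not overlap. Con-FMT mice were more uneven than A10-FMT mice in Nqo1 (SD 3.68 against 0.197 RPKM), Gpx4 (85.3 against 18.6 RPKM) and Sod2 (11.5 against 1.52 RPKM). Differences of spread were not tested.

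Taking all groups by STZ, the 12 mice given it (STZ, STZ+AOS and both transplanted groups) were all above the 6 mice not given it in 4 of the 10 genes, where 10.7% of all genes were so separated and a further 1.43% lay all below. The lowest of the 12 and the highest of the 6 were 3.91 and 2.59 RPKM in Nqo1, 35.48 and 33.33 RPKM in Txnrd1, 293.09 and 253.98 RPKM in Gpx4 and 711.25 and 689.97 RPKM in Prdx1. For Txnrd1 and Prdx1 the gap was narrow. This separation was read from RPKM as deposited. Under median-ratio scaling the log2 change of Prdx1 was 0.035 in STZ against Con and -0.019 in STZ+AOS against AOS, neither called in limma. The other 6 genes overlapped.

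The wider antioxidant pathway was read from 11 lists, which hold 132 tested genes besides the 10, some of them in more than 1 list. In STZ against Con 75 of the 132 were called, 63 higher and 12 lower, beside 38.5% of all genes (33% higher and 5.52% lower). Without STZ mouse 3 it was 82 (67 higher, 15 lower), beside 47.4% of all genes. Under median-ratio scaling it was 53, with a less one-sided split (33 higher, 20 lower), beside 14.1% of all genes higher and 13.2% lower. The median log2 change was below the 0.21 of all genes for glutathione synthesis and recycling (0.12), other selenoproteins (0.15) and the oxidases (0.17). It was above it for the other lists. The lists are described by their counts and medians, and no claim is made that they differ from other genes.

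Regulators of NRF2 activity were higher in 10 of 15 genes and lower in 0, with a median log2 change of 0.41 against 0.21 for all genes. Bach1, a repressor that competes for the ARE, rose by 1.19, and the small MAF partners Maff and Mafk rose by 2.47 and 0.89 (adjusted p 0.000292, 0.000416 and 0.000761 in limma). Maff was at 0.61 to 0.83 RPKM in Con and at 13.43, 10.21 and 4.63 RPKM in STZ. Nfe2l2, which encodes NRF2, rose by 0.77, and Keap1, which marks NRF2 for breakdown, rose by 0.41 (adjusted p 0.000831 and 0.00229 in limma). These were named after their values were seen, and Keap1 was not called under median-ratio scaling (0.16, adjusted p 0.0991). Under that scaling 5 regulators were higher and 2 lower.

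Among other NRF2 targets, 13 of 26 were higher and 2 lower (9 and 3 under median-ratio scaling). Cbr1, a carbonyl reductase, rose from 34.2, 42.54 and 38.17 RPKM to 263.78, 332.35 and 137.36 RPKM, a log2 change of 2.56 (adjusted p 0.000471 in limma). The bile and export pumps Abcc2 and Abcc3 rose by 1.25 and 1.74. Me1, the cytosolic malic enzyme, and Taldo1, of the pentose phosphate pathway, fell by 0.63 and 0.29 on the log2 scale. Of the 10 heme and bilirubin genes 6 were higher and 0 lower (3 and 0 under median-ratio scaling), led by Por (3.11), the reductase that serves heme oxygenase and the cytochromes P450, Ugt1a1 (2.06), which conjugates bilirubin, and Fech (0.76), which makes heme.

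Thioredoxin and glutaredoxin genes were higher in 12 of 21 and lower in 0 (6 and 3 under median-ratio scaling). Txnip, which binds thioredoxin, rose by 2.09, from 9.22, 14.26 and 12.61 RPKM to 65.51, 62.26 and 38.28 RPKM. Srxn1, which repairs over-oxidised peroxiredoxins, rose by 1.00, and Sesn2 rose by 1.10. Of the other peroxiredoxins, the mitochondrial Prdx3 (0.63), Prdx6 (0.60) and Prdx2 (0.55) rose, while Prdx4, the member of the endoplasmic reticulum, fell by 0.73 on the log2 scale. Of the 3 other glutathione peroxidases tested, Gpx3 (0.99) and Gpx7 (0.88) rose. Under median-ratio scaling Prdx3 (0.37) and Gpx7 (0.73) were still called, while Prdx6 (0.34, adjusted p 0.0592), Prdx2 (0.29, adjusted p 0.160) and Gpx3 (0.79, adjusted p 0.0838 in limma) were not.

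The list of selenoprotein synthesis and selenium binding had 7 of 10 genes higher and 1 lower (3 and 2 under median-ratio scaling). Trnau1ap and Sephs1, which serve selenocysteine synthesis, rose by 0.77 and 0.69. Selenbp1, which binds selenium and does not carry selenocysteine, rose by 1.06, and its relative Selenbp2 fell from 1676.92, 1196.48 and 1493.43 RPKM to 17.62, 12.14 and 224.49 RPKM, a log2 change of -5.24 (adjusted p 0.00387 in limma). Selenbp1 and Selenbp2 are near-identical and may share reads. Of 12 other selenoprotein genes 2 were higher and 2 lower (1 and 2 under median-ratio scaling). Selenop, the selenium carrier that liver secretes, rose by 1.06 and Selenoo by 0.45, while Dio1, the deiodinase that activates thyroid hormone, fell from 54.54 to 73.18 RPKM in Con to 0.44 to 0.7 RPKM in STZ (log2 change -5.35, adjusted p 0.00146 in limma), and Selenok fell by 0.32 on the log2 scale. Selenoprotein genes therefore moved in both directions beside Gpx4 and Txnrd1.

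Glutathione synthesis and recycling had 5 of 16 genes higher and 3 lower (3 and 3 under median-ratio scaling). Nnt, which supplies mitochondrial NADPH, rose by 1.17, Oplah by 0.98 and Gss, the glutathione synthetase, by 0.70, while Ggct, Me1 and Idh1 fell by 0.74, 0.63 and 0.38 on the log2 scale. Of the oxidases that make hydrogen peroxide, the substrate of catalase, 7 of 22 were higher and 4 lower (2 and 6 under median-ratio scaling). Both lists stand beside 33% of all genes higher and 5.52% lower, so their counts of higher genes are near that of any genes. Urate oxidase (Uox), Maob and Acox2 rose by 1.06, 0.91 and 0.59, and Aox3, Nox4 and Hao1 fell by 1.66, 1.47 and 0.68 on the log2 scale. None of the 3 SOD partner genes (Ccs, Cygb and Mpv17) was called, with a median of 0.33.

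In STZ+AOS against AOS the same lists gave 10 of 15 regulators of NRF2 higher and 0 lower, 15 of 28 other NRF2 targets higher and 2 lower, 7 of 10 heme and bilirubin genes higher and 0 lower, and 6 of 21 thioredoxin and glutaredoxin genes higher and 1 lower. Of the oxidases 3 of 23 were higher and 6 lower. All genes were 31.8% higher and 6.11% lower. Under median-ratio scaling the lists gave 5 regulators higher and 0 lower, 13 other targets higher and 4 lower, 4 heme and bilirubin genes higher and 0 lower, 5 thioredoxin and glutaredoxin genes higher and 3 lower, and 0 oxidases higher and 6 lower, beside 12.3% higher and 12.2% lower of all genes. Against STZ, 0 of the 132 genes were called in A10-FMT or Con-FMT in limma. Under median-ratio scaling Txnip was called lower in both (-1.29 and -1.53, adjusted p 0.0440 and 0.0367 in limma), and Bach1 (-0.66) and the export pump Abcc4 (-1.32) in Con-FMT, beside 0.934% and 0.707% of all genes. Without STZ mouse 3 it was 23 (8 higher, 15 lower) beside 12.7% of all genes and 24 (8 higher, 16 lower) beside 15.5%.

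**Figure D4:**
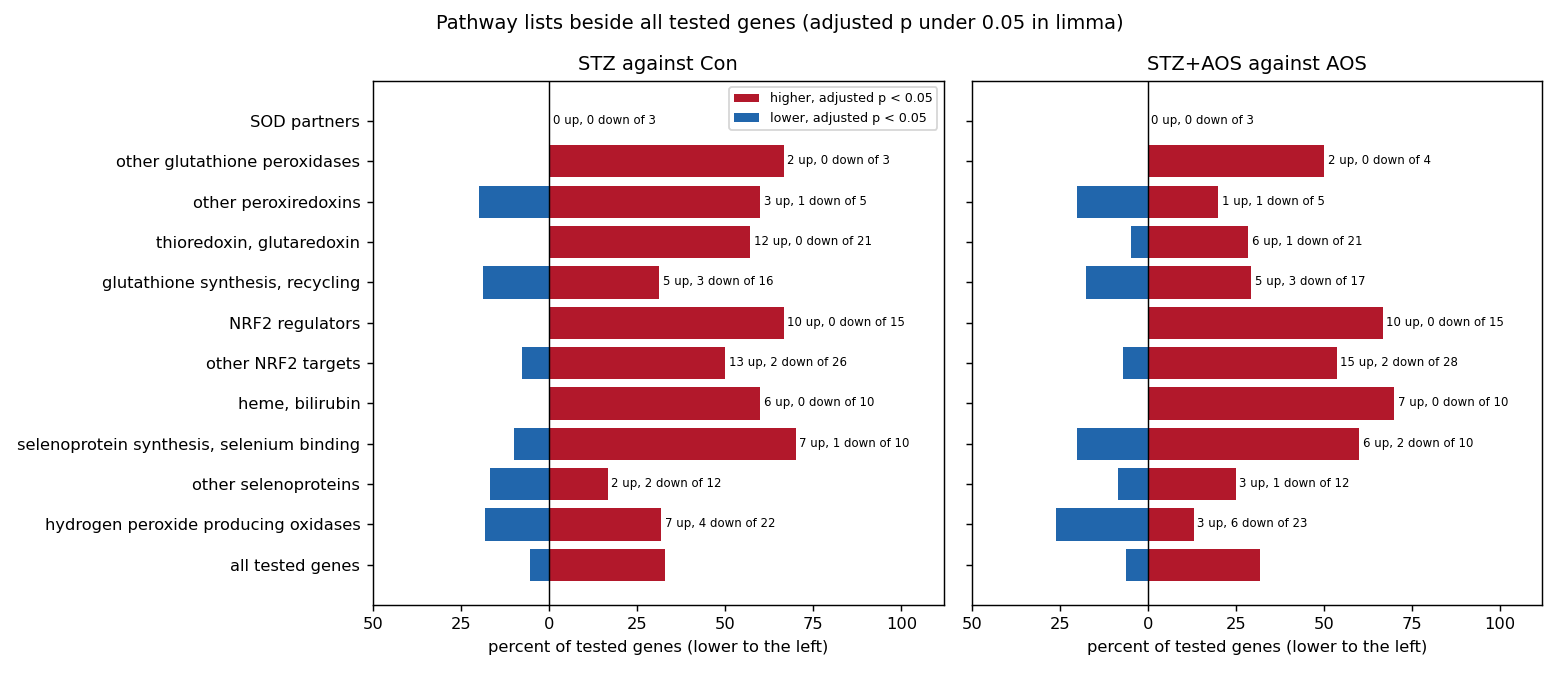
Percent of the tested genes of each list, and of all tested genes, that were higher (right) or lower (left) at an adjusted p under 0.05 in limma, with the counts beside the bars. All tested genes had 33% higher and 5.52% lower in STZ against Con, and 31.8% and 6.11% in STZ+AOS against AOS.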

How the data were processed

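Liver RNA was extracted with Trizol and sequenced on Illumina libraries. The deposited values are RPKM, computed by the authors per gene symbol. The methods name SOAPaligner, while the submitters' processing notes name Bowtie 0.12.2 and mm10. Read counts were not used here, so the counting error of low values is unknown. Whether the libraries keep strand is not given in the sources used here.

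Genes reaching 1 RPKM in 3 or more libraries were kept, and log2(RPKM + 1) was fitted in R 4.3.3 by the package limma 3.58.1 (lmFit, contrasts.fit, eBayes with trend, two-sided). The 12 libraries of the 4 groups the study compared gave 10602 genes. All 18 libraries gave 10822 genes, for contrasts with AOS or STZ+AOS. P-values were adjusted by Benjamini-Hochberg within a contrast and called under 0.05. The fit was tested on simulated data. P-values set a difference between group means against the spread between the 3 mice within groups. That spread was pooled over the groups of a fit and moderated across genes by eBayes.

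The 10 genes, the lists and the tests were chosen with earlier results of these data known. Named were the 10 genes and, per list, up to 3 higher and 3 lower called genes, taken in order of adjusted p in STZ against Con. Positions come from GENCODE M21 (GRCm38), which held 18515 of the 19057 symbols. Alternatives were median-ratio scaling, median centring, quantile normalization, a pseudocount of 0.1, other filters, no trend, other sets of groups, the limits of the study, a replicate block and leaving out each mouse. The count of list genes without STZ mouse 3 was added after seeing the data.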

Additional observations from a re-analysis of the deposited data

How the results depend on the processing

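The rise of Nqo1, Txnrd1 and Gpx4 in STZ against Con was called under every alternative fit in which the gene was tested. The filter of 1 RPKM in every library left Nqo1 untested (0.94 RPKM in Con mouse 1). The limits of the study (FDR of 0.001, log2 change of 1) left 1 of the 3. In STZ+AOS against AOS those limits left 2 of 4 genes. In A10-FMT against Con they left 0, the scalings, the filters, and the replicate block with median-ratio scaling gave 1, the fit with no variance trend 4 and that of the compared groups only 5. In Con-FMT against Con they left 0, the scalings and no filter gave 1 and the replicate block 2, with or without median-ratio scaling. With 1 mouse left out the number of the 10 genes called ran from 3 to 4 in STZ against Con, 3 to 5 in STZ+AOS against AOS, 1 to 1 in A10-FMT against Con, 1 to 3 in Con-FMT against Con, and 0 to 2 in either transplanted group against STZ, the 2 without STZ mouse 3. In the other comparisons the number stayed at 0.

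Values that changed sign were not called. In STZ against Con these were Sod1 (-0.082 with median-ratio scaling, alone or with the replicate block, and -0.062 with median centring), Gpx1 (-0.10 and -0.082), Sod2 (-0.0014 with median-ratio scaling) and Cat (-0.36 to 0.048 with 1 mouse left out, the latter without STZ mouse 2). Gpx4 changed sign in A10-FMT against STZ (-0.33 to 0.0065, the latter without STZ mouse 1) and in Con-FMT against STZ (-0.36 to 0.037, the latter without Con-FMT mouse 2). Against Con, Prdx1 became -0.036 (A10-FMT) and -0.025 (Con-FMT) with quantile normalization. Hmox1 ran from -0.38 to 0.19 in A10-FMT, the latter without mouse 2. In Con-FMT it became -0.16 under median-ratio scaling, -0.15 under median centring and -0.19 under quantile normalization, and with 1 mouse left out ran from -0.15 to 0.33, below 0 without Con-FMT mouse 1 or 3. Of 776 alternative values of single genes, 684 kept direction and side of the threshold, 57 lost the call, 15 gained it and 20 changed sign. The cause was not tested.

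Mouse numbers are shared across groups. The labels do not say whether they mark pairs of mice, and no test of this was run. Of 45 pairs with the same number 16 had a correlation of deviations over 0.1. Their median was 0.0315, beside -0.0127 for pairs with other numbers, and 9 of 18 libraries correlated best with their own number. The replicate block moved the count of all genes called in STZ against Con from 4087 to 3714.

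Groups of 3 mice limit all comparisons.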

Other observations

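Levels in the transplanted mice are given for Por, Cbr1 and Txnip, which were chosen after their values were seen. Por was read at 37.59 to 43.58 RPKM in Con, 187.4 to 551.64 RPKM in STZ, 202.21 to 338.96 RPKM in A10-FMT and 123.8 to 201.59 RPKM in Con-FMT. Cbr1 was read at 94.32 to 121.03 RPKM in A10-FMT and 58.68 to 125.72 RPKM in Con-FMT, above Con (34.2 to 42.54 RPKM) and below STZ (137.36 to 332.35 RPKM) in all 6 mice. Txnip was read at 16.21 to 29.06 RPKM in A10-FMT and 14.93 to 22.72 RPKM in Con-FMT, above Con (9.22 to 14.26 RPKM) and below STZ (38.28 to 65.51 RPKM). Por in A10-FMT overlapped STZ. Against STZ, Por and Cbr1 were not called in either group, and Txnip was called in both under median-ratio scaling (adjusted p 0.0440 and 0.0367 in limma) but not as deposited (0.0580 and 0.0576).

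Against Con, A10-FMT had 6 of 15 regulators of NRF2 higher and 0 lower, 11 of 26 other NRF2 targets higher and 1 lower, and 9 of 21 thioredoxin and glutaredoxin genes higher and 0 lower (limma), where 15.9% of all genes were higher and 2.47% lower. Con-FMT had 6 of 15, 8 of 26 and 9 of 21 higher and 0 lower in each, where 17.5% of all genes were higher and 1.89% lower. Under median-ratio scaling the same lists gave 4 higher and 0 lower, 8 and 1, and 5 and 1 in A10-FMT (5.95% and 5.04% of all genes), and 2 and 0, 7 and 3, and 3 and 1 in Con-FMT (4.45% and 3.68%). The summed level of the stellate cell and fibroblast markers (6 genes) was 72 to 83.1 RPKM in Con, 108 to 131 RPKM in STZ, 100 to 110 RPKM in A10-FMT and 71.2 to 143 RPKM in Con-FMT. Most of this sum came from Dcn, and its part in these counts was not tested.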
